A study of Homo sapiens with 32 samples.

Results

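AURKA, NEK2, BUB1 and BUB1B are mitotic kinases and spindle checkpoint genes, and their mRNA was followed in ZR-75-1 breast cancer xenografts during the first 14 days of tamoxifen. Members were all cDNA array probes that carry one of these symbols in the study's list of named probes, which gave 4 probes for 3 of the 4 genes, out of 333 named probes for 253 genes and 9912 probes on the arrays. AURKA and BUB1B had 1 probe each and NEK2 had 2, called NEK2 probe A and NEK2 probe B here. BUB1 had no probe under that symbol in the list and is not analysed here. The 333 probes were chosen by the study on these same arrays for their change with tamoxifen, and all 4 member probes lie in its set 1 of 40 probes, which was clustered by time course. The calls given here are therefore not independent evidence of a direction.

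ZR-75-1 is an estrogen receptor positive line of human breast cancer cells, and tamoxifen competes with estrogen for that receptor. Fragments of 1 passaged ZR-75-1 tumor line grew in both flanks of female nude mice, so the samples are 1 cell line in a host without T cells. Slow-release estradiol (E2) was given to all mice, pool donors included, and treatment added a 2.5 mg tamoxifen pellet meant to last 60 days. The tamoxifen tumors were taken on day 1 (4 tumors from 2 mice), day 2 (2 tumors from 2 mice), day 4 (4 tumors from 3 mice), day 7 (4 tumors from 3 mice) and day 14 (2 tumors from 2 mice). Each was set against a control pool of RNA from E2-only xenografts of days 0, 1, 2 and 4, which is 1 sample. The pool is a mixture of these days and holds no tumor of days 7 or 14, so no day has a control matched in time. Tamoxifen and time since day 0 therefore cannot be told apart on any day, nor in a difference between days. In whole tumors, fewer dividing cells and less mRNA per dividing cell cannot be told apart either.

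AURKA encodes Aurora kinase A, which matures the centrosomes and helps build the spindle poles. NEK2 encodes a centrosomal kinase that lets the duplicated centrosomes separate at the start of mitosis. BUB1 and BUB1B belong to the spindle assembly checkpoint, which holds back anaphase until every kinetochore is attached: BUB1 is a kinase that recruits checkpoint proteins to kinetochores, and BUB1B encodes BubR1, a subunit of the mitotic checkpoint complex that inhibits the anaphase-promoting complex. Their mRNAs are highest in G2 and M phase, so their level in a tissue depends in part on the share of cells in division. In estrogen receptor positive breast cancer, estrogen drives cells into the cycle and antiestrogens hold them in G1.

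In GRCh38.p14, AURKA lies on chromosome 20 (56369390 to 56392215), NEK2 on chromosome 1 (211658256 to 211675621), BUB1 on chromosome 2 (110637528 to 110678063) and BUB1B on chromosome 15 (40161069 to 40221123). RefSeq also lists 2 pseudogenes of AURKA and 4 of NEK2, and a cDNA spot may also bind their transcripts. The 250 bases before the RefSeq gene start are printed for NEK2 (chr1:211675622-211675871, minus strand) and BUB1B (chr15:40160819-40161068, plus strand), as the promoters of measured genes whose ratios followed each other across the tumors. They run 5′ to 3′ on the gene's strand. Capitals mark CCAAT (the CCAAT box, bound by NF-Y) and TTTGAA (a cell cycle gene homology region, bound by the DREAM and MYB-MuvB complexes), each searched on both strands together with TTCGAA, GGTCANNNTGACC (the palindromic estrogen response element) and GGTCA, 1 arm of it.
NEK2: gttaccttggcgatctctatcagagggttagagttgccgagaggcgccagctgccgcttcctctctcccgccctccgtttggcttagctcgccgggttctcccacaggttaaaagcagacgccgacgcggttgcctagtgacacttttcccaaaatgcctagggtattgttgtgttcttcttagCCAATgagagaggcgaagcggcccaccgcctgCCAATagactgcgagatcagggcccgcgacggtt
BUB1B: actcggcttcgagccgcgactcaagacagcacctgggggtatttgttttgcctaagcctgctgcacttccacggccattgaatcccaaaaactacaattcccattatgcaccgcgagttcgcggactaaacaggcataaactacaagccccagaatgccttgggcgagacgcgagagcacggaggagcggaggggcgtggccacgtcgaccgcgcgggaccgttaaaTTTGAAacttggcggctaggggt
The NEK2 window held CCAAT 2 times, 66 to 62 and 34 to 30 bases before the start, and CCAAT stands in 9021 of the 27305 promoter windows of this length. The BUB1B window held TTTGAA 23 to 18 bases before the start, and 13.6% of windows hold it. None of the other letters searched stands in either window, where GGTCANNNTGACC stands in 0.0439% of all windows, GGTCA in 33.1% and TTCGAA in 1.2%. A match is a description of the letters and not a bound site.

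Each tumor was hybridized in both dye orientations, and the values below are log2 ratios (treated tumor over control pool) averaged over the 2 orientations. A negative value means less mRNA in the treated tumor than in the pool. Which dye each file channel holds is not given, and if the channels are numbered as in the sample labels every sign turns. The direction used is the likely one, because the deposited value table runs the same way on all 32 arrays. The study also describes the set that holds these genes as repressed. The dye-swap array that is labelled as day 4 replicate 4 was not used, since its ratios followed the forward array of another tumor, day 4 replicate 2 (r = 0.880 across all probes, against 0.527 for the next array). Day 4 replicate 3, the tumor that it should belong to, therefore rests on 1 forward array. A probe was called at an adjusted p under 0.05 from limma, fitted on all 9912 probes with a mean for each day and with mice as random blocks.

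All 4 member probes were called lower in treated tumors than in the pool at days 1, 2 and 14. At days 4 and 7 the ratios were closer to the pool, and 0 and 1 of the 4 were called. Among all probes, the share called lower was 3.59% on day 1, 0.636% on day 2, 0.696% on day 4, 0.494% on day 7 and 2.96% on day 14. The median of the 4 members was -0.41, -0.89, -0.26, -0.32 and -0.77 on these days, and the median of all probes lay within 0.01 of 0 on each. NEK2 probe A had the lowest day mean among the members, -1.11 ± 0.07 at day 2 (SD, n = 2).

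**Figure D1:**
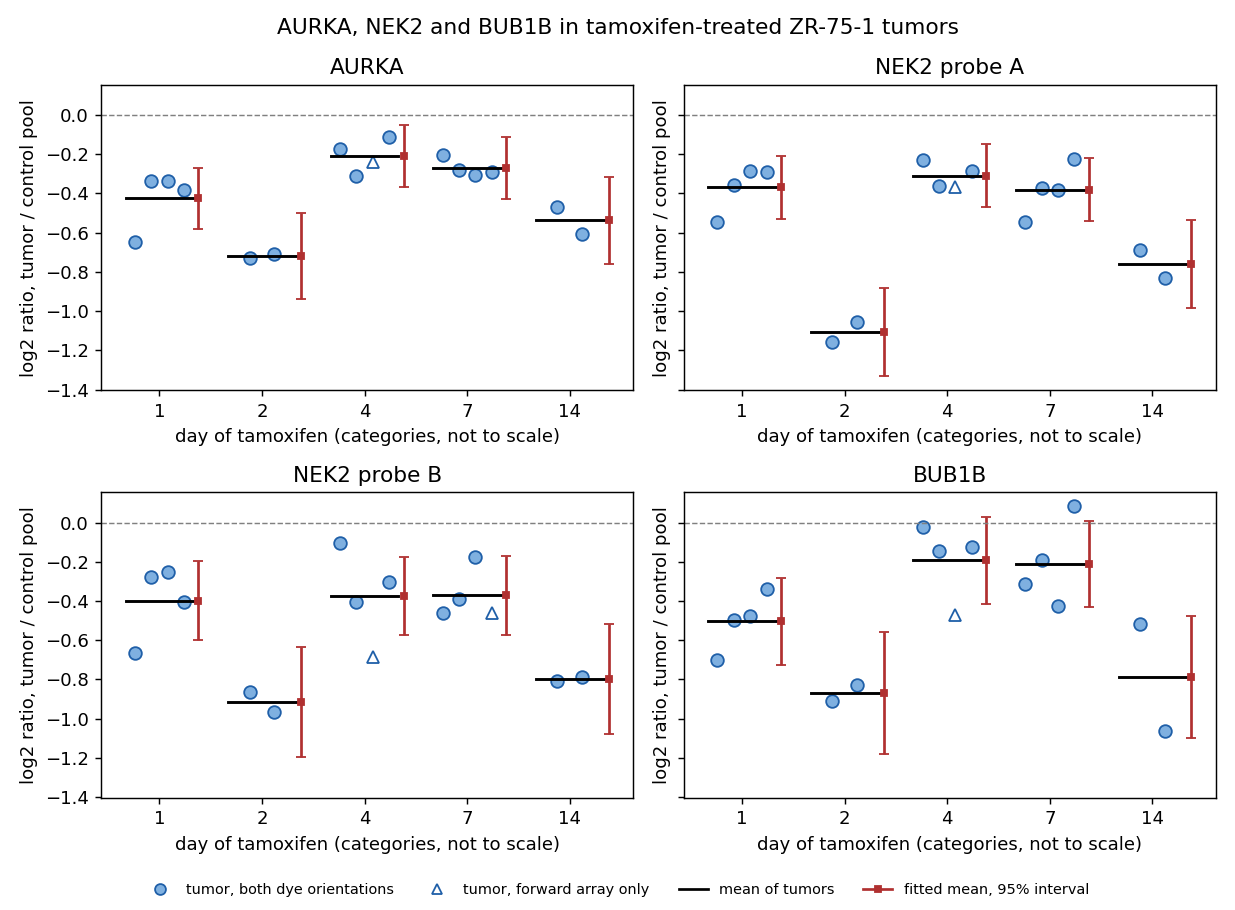
Log2 ratio, treated tumor over control pool (y axis) by day of tamoxifen (x axis, as categories) for the 4 member probes; points are tumors, black lines their means, and red bars the fitted mean with its 95% interval. Both tumors of day 2 and both of day 14 lie below every tumor of days 4 and 7 in all 4 panels, and the 1 point above 0 is a day 7 tumor for BUB1B. Such separation was not counted over all probes.

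AURKA was below the pool in 16 of 16 tumors. On day 1 its log2 ratios were -0.65, -0.34, -0.34 and -0.38 (replicates 1 to 4), and on day 2 they were -0.73 and -0.71. On day 4 they were -0.17, -0.31, -0.24 and -0.11 (replicates 1, 2, 3 and 5), on day 7 -0.20, -0.28, -0.30 and -0.29, and on day 14 -0.47 and -0.60. The 8 tumors of days 4 and 7 all lay above the 6 tumors of days 1 and 2, and day 1 replicate 1 stood apart from the other tumors of its day. How many of all probes separate these days in the same way was not counted. The means were -0.43 ± 0.15 at day 1 (adjusted p = 0.00381), -0.72 ± 0.01 at day 2 (0.00303) and -0.54 ± 0.09 at day 14 (0.00472), each limma adjusted p against the pool. The day 2 mean is 0.608 of the pool level, with a 95% interval of -0.94 to -0.50 on the log2 scale. The means of -0.21 ± 0.09 at day 4 and -0.27 ± 0.05 at day 7 were not called (limma adjusted p = 0.177 and 0.118). With day 2 replicate 1 left out, the limma adjusted p of day 2 was 0.127. Without day 14 replicate 1 or 2, that of day 14 was 0.0578 or 0.207.

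NEK2 was below the pool in 16 of 16 tumors on both of its probes. Probe A gave -0.54, -0.36, -0.29 and -0.29 on day 1 and -1.16 and -1.05 on day 2. It gave -0.23, -0.36, -0.37 and -0.28 on day 4 (replicates 1, 2, 3 and 5), -0.54, -0.37, -0.38 and -0.23 on day 7, and -0.69 and -0.83 on day 14. The tumors of day 2 were the lowest of all days, and the mean of -1.11 is 0.464 of the pool level (95% interval -1.33 to -0.88 on the log2 scale, limma adjusted p = 4.06e-05). Only 15 of the 9912 probes, 0.151%, had a lower mean on that day. The probe was also called at day 1 (-0.37 ± 0.12, adjusted p = 0.00971), day 7 (-0.38 ± 0.13, adjusted p = 0.0282) and day 14 (-0.76 ± 0.10, adjusted p = 0.000394) by limma, but not at day 4 (-0.31 ± 0.07, adjusted p = 0.0591). It was the only member probe called at day 7. That call was lost without any 1 of the 4 tumors of day 7, without day 1 replicate 2 and without day 4 replicate 1 (adjusted p from 0.0538 to 0.2 in limma). The day 1 call was lost without replicate 1 (0.0836) or 2 (0.0567), and the day 14 call without replicate 2 (0.0692).

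NEK2 probe B gave -0.67, -0.28, -0.25 and -0.40 on day 1 and -0.86 and -0.97 on day 2. On day 4 it gave -0.10, -0.40, -0.68 and -0.30 (replicates 1, 2, 3 and 5), on day 7 -0.46, -0.39, -0.18 and -0.46, and on day 14 -0.81 and -0.79. The spread on day 4 was the widest of the 5 days for this probe (SD 0.24), and its lowest tumor, replicate 3, is the one measured on a forward array alone. Day 7 replicate 4 also rests on a forward array here, because its dye-swap spot carried the mark 0. The probe was called at day 1 (-0.40 ± 0.19, adjusted p = 0.0201), day 2 (-0.92 ± 0.07, adjusted p = 0.00303) and day 14 (-0.80 ± 0.01, adjusted p = 0.00159) in limma, with adjusted p = 0.0669 at day 4 and 0.0892 at day 7. Without day 1 replicate 1 or 2 the adjusted p of day 1 was 0.146 or 0.0637, and without day 2 replicate 1 that of day 2 was 0.0844. Without day 14 replicate 1 or 2 that of day 14 was 0.0552 or 0.0837. In addition, 2 calls were gained: day 4 without day 4 replicate 1 (0.0449) and day 7 without day 4 replicate 3 (0.0397).

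The NEK2 probes are separate spots for 1 gene and measured the same RNA. Their ratios differed by 0.00 ± 0.16 on average (probe A minus probe B, SD over 16 tumors) and by less than 0.2 in 12 of 16 tumors. The largest difference, 0.32, was in day 4 replicate 3. Across the 16 tumors Pearson's r was 0.844 and Spearman's rho 0.735, given as a description because both probes share each array. Both probes placed the tumors of days 2 and 14 below all those of days 4 and 7, a separation that was not counted over all probes.

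**Figure D2:**
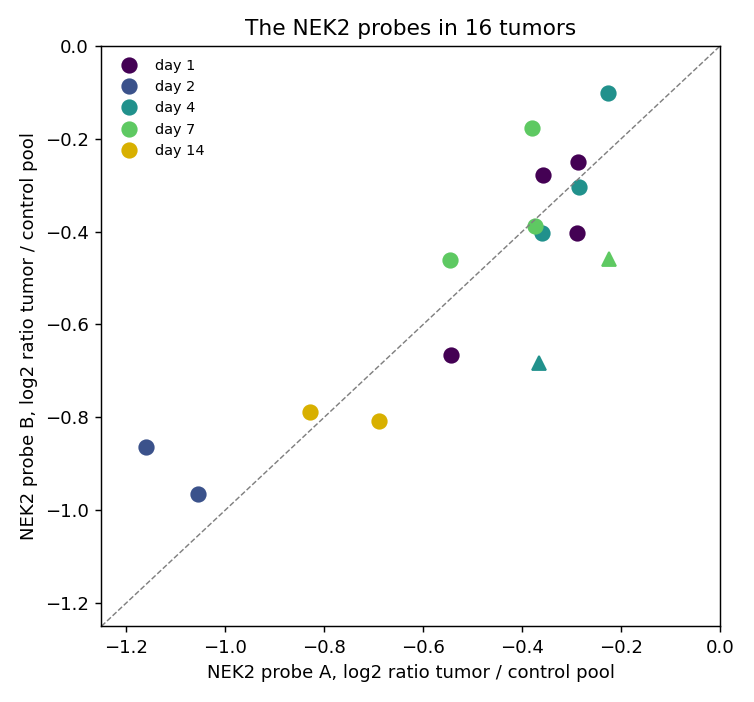
Log2 ratio, treated tumor over control pool, on NEK2 probe B (y axis) against probe A (x axis) in the 16 tumors, colored by day; triangles are tumors where probe B rests on a forward array alone, and the dashed line marks equal values. The tumors of days 2 and 14 lie at the lower left, and day 4 replicate 3 (a triangle) is farthest from the line.

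BUB1B was below the pool in 15 of 16 tumors. On day 1 it gave -0.70, -0.50, -0.48 and -0.34, and on day 2 -0.91 and -0.83. On day 4 it gave -0.02, -0.15, -0.47 and -0.12 (replicates 1, 2, 3 and 5), on day 7 -0.31, -0.19, -0.42 and 0.08, and on day 14 -0.51 and -1.06. The tumors of days 4 and 7 reached the pool level in part, and the tumors of day 14 were far apart. BUB1B was called at day 1 (-0.50 ± 0.15, adjusted p = 0.00985), day 2 (-0.87 ± 0.06, adjusted p = 0.00642) and day 14 (-0.79 ± 0.39, adjusted p = 0.00365) in limma. The 95% intervals at day 4 (-0.41 to 0.03) and day 7 (-0.43 to 0.01) included 0, with adjusted p values of 0.375 and 0.460. Without day 14 replicate 2, day 14 rests on the 1 tumor at -0.51 (adjusted p = 0.293), whose spread is assumed to be that of the other days. Without day 2 replicate 1 the limma adjusted p of day 2 was 0.365, and without day 1 replicate 1 or 2 that of day 1 was 0.0841 or 0.0625.

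On day 1, replicate 1 had the lowest ratio of the 4 tumors on all 4 member probes, which were read on the same arrays. The share of all probes with this tumor lowest was not counted. Replicate 1 shares its mouse with replicate 2. In the 4 mice with both flanks measured, the 2 tumors of a mouse differed on average by 0.13 for AURKA, 0.12 and 0.28 for NEK2 (probes A and B) and 0.24 for BUB1B. A further fit used 1 mean per mouse in place of 1 value per tumor. In it no member probe was called at day 1 (limma adjusted p = 0.128 to 0.203, 2 mice). All 4 were called at days 2 and 14. Calls among all probes, in either direction, also fell sharply at day 1 in this fit and changed little at days 2 and 14. The loss at day 1 was therefore not limited to the members.

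The question between days was whether the members moved back toward the pool after day 2 and away from it again by day 14. The log2 difference of the mean of days 4 and 7 over that of days 1 and 2 was 0.33 for AURKA (95% interval 0.16 to 0.51), 0.39 and 0.28 for NEK2 (probes A and B) and 0.48 for BUB1B. The limma adjusted p values were 0.381, 0.341, 0.593 and 0.381, so no member passed the test. No probe of the 9912 was called higher in this contrast (0%), although 394 had an unadjusted p under 0.05, the 4 members among them. The AURKA tumors of days 4 and 7 did not overlap those of days 1 and 2, a separation that was not counted over all probes. For the other member probes, 5 (NEK2 probe A), 6 (NEK2 probe B) and 2 (BUB1B) of the 8 tumors of days 4 and 7 lay below the highest tumor of days 1 and 2.

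The log2 difference of day 14 over the mean of days 4 and 7 was -0.30 for AURKA, -0.41 and -0.43 for NEK2 (probes A and B) and -0.59 for BUB1B. The limma adjusted p values were 0.315, 0.154, 0.252 and 0.141. All 4 had an unadjusted p under 0.05, as did 542 of all probes in this direction, and 0.0706% of all probes were called. Both tumors of day 14 lay below all 8 tumors of days 4 and 7 on each member probe. The share of all probes with such a separation was not counted, so it is a description only. In the F-test between the 5 days 0 of the 4 members and 0.0807% of all probes were called, and NEK2 probe A was nearest to the threshold (limma adjusted p = 0.0624). Fits of the single arrays with a dye term called 3 members lower at day 14 than at days 4 and 7. They called 2 members higher at days 4 and 7 than at days 1 and 2. They also called more of all probes in both contrasts, and the members were not tested against that rise. In the fit of 1 value per tumor the course over days is a description of the means, with no called difference between days.

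The size of the ratios differed between the dye orientations. Over all days, AURKA averaged -0.46 ± 0.25 on forward arrays and -0.32 ± 0.26 on dye-swap arrays (SD, n = 16 and 15). NEK2 averaged -0.67 on forward arrays and -0.32 on dye-swap arrays for probe A, and -0.67 on forward arrays and -0.30 on dye-swap arrays for probe B. BUB1B averaged -0.63 ± 0.31 on forward arrays and -0.22 ± 0.41 on dye-swap arrays. Within a tumor the forward array was the lower one in 10 of 15 tumors for AURKA, 15 of 15 and 11 of 14 for NEK2 and 13 of 15 for BUB1B. On all 16 forward arrays every member probe was below 0, and on dye-swap arrays this held for 14 of 15 (AURKA), 15 of 15 and 12 of 14 (NEK2) and 10 of 15 (BUB1B).

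For BUB1B the orientations fell on opposite sides of the pool level at days 4 and 7. It averaged -0.38 on the 4 forward arrays and 0.16 on the 3 dye-swap arrays of day 4, and -0.48 on the 4 forward arrays and 0.06 on the 4 dye-swap arrays of day 7. At day 4 the dye-swap means of AURKA (0.00) and NEK2 probe B (0.01) also stood at the pool level, while NEK2 probe A averaged -0.39 on forward arrays and -0.18 on dye-swap arrays. On day 2 both orientations were below the pool for every member, for example -1.48 and -1.42 on the forward arrays and -0.84 and -0.69 on the dye-swap arrays for NEK2 probe A. With forward arrays alone, all 4 members were called at day 4 and 3 at day 7. Many more of all probes, in either direction, were also called on these days than with both orientations. With dye-swap arrays alone, 2 members were called at day 2, 2 at day 14 and 0 on the other days. Among all probes, dye-swap arrays alone called fewer at days 1 and 4, but more at days 2, 7 and 14, than both orientations did. The mean of both orientations cancels a dye effect except in the tumors with 1 array, and the part of dye in these values was not tested beyond this.

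**Figure D3:**
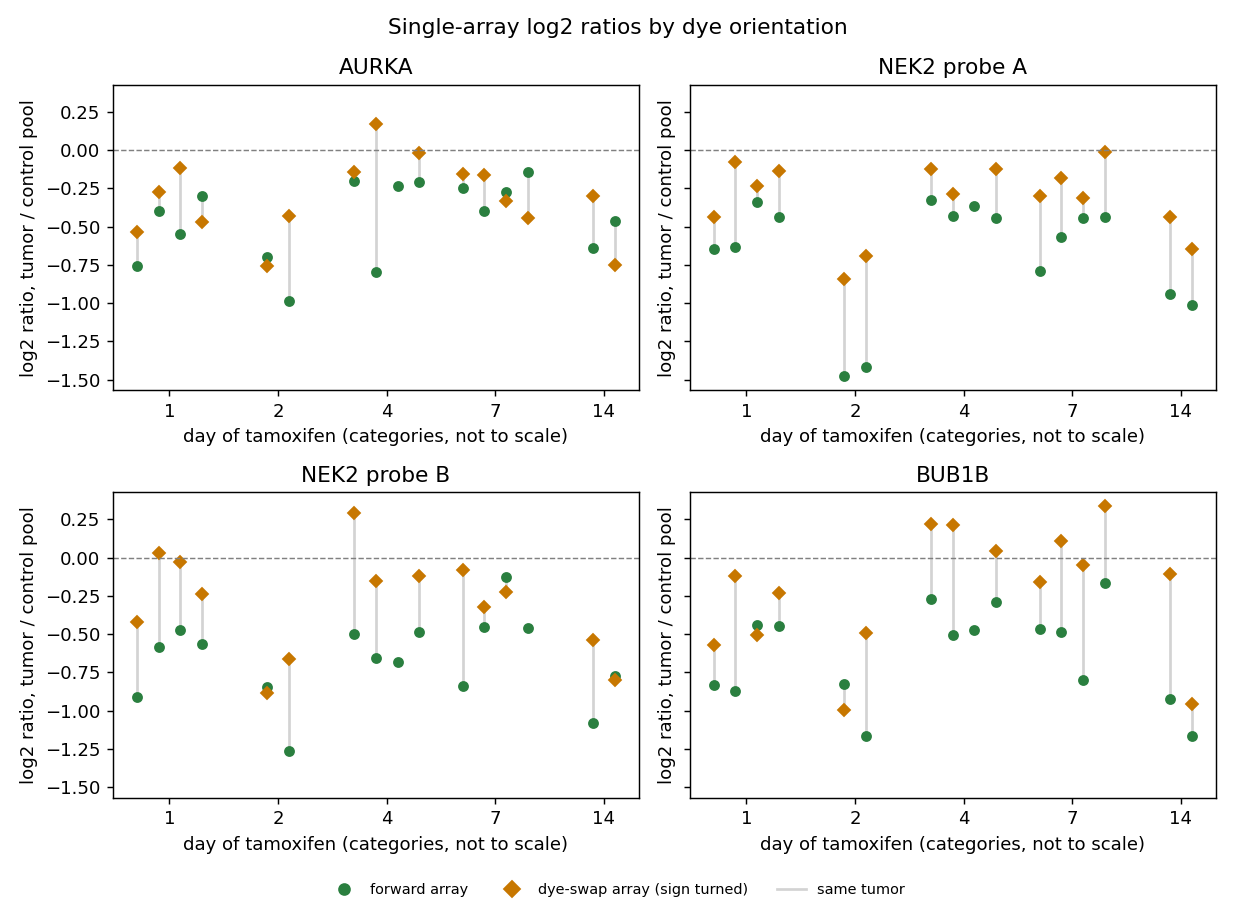
Log2 ratio, treated tumor over control pool, on single arrays (y axis) by day of tamoxifen (x axis, as categories), with forward arrays as green circles and dye-swap arrays, sign turned, as orange diamonds; grey lines join the arrays of 1 tumor. Every forward array lies below 0, and the dye-swap arrays of BUB1B at day 4 all lie above 0.

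All member spots used were measured above the local background. Their signal was at least 2.27 times the background in each channel, with medians of 5.89 (BUB1B) to 10.3 (NEK2 probe A) in the tumor channel and 7.28 (AURKA) to 13.7 (NEK2 probe A) in the pool channel. No member spot was saturated. Over all probes, the arrays of 1 orientation correlated with r of 0.244 to 0.613 (forward) and 0.0226 to 0.610 (dye swap). Arrays of 1 orientation share any dye effect, which can add to these values. Between the 2 orientations of a tumor, with the sign turned, the mean r was only 0.0553 over all probes. Over the named probes, which the study picked on these arrays, it was 0.673. The median signal of an array was 2.29 to 9.61 times the background.

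The members followed each other across the 16 tumors, with Pearson's r of 0.715 to 0.846 over their 6 pairs. Tumors of 1 day share their treatment time and all tumors share the pool, so these are descriptions. With the day means removed, r ranged from 0.310 (NEK2 probe B with BUB1B) to 0.759 (NEK2 probe A with BUB1B). The median r of a member with the other 39 probes of set 1 was 0.65 to 0.80, and with the 159 probes of set 6, none of which was called lower on any day, it was -0.28 to -0.23. Set 1 was clustered on these ratios.

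Among the other named probes, the one most like NEK2 probe A was CDC25B, a phosphatase that activates CDK1 (r = 0.952, rho = 0.879). It was followed by DLG7, a spindle protein also named DLGAP5 (r = 0.911), UBE2C (0.860), AURKA (0.846) and the second NEK2 probe. Those most like NEK2 probe B were 3 probes of UBE2C (r = 0.872, 0.813 and 0.797), the other NEK2 probe (0.844) and AURKA (0.789). UBE2C encodes the ubiquitin-conjugating enzyme of the anaphase-promoting complex. BUB1B was most like ZWINT, a kinetochore protein (r = 0.940, rho = 0.885), followed by EBP (0.902), STMN1 (0.895), PRC1 (0.889) and UBE2C (0.875). AURKA was most like EBP (r = 0.893, rho = 0.891), an enzyme of cholesterol synthesis, and then DLG7 (0.869), both other member genes and CDKN3 (0.835). EBP itself was lower than the pool at day 1 (-0.40 ± 0.10), day 2 (-0.57 ± 0.02) and day 14 (-0.62 ± 0.21), with limma adjusted p of 0.00645, 0.0151 and 0.00217 on its brightest probe. Its second probe was called at days 1 and 14 but not at day 2 (-0.61, limma adjusted p = 0.053).

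Other genes of cell division were taken from 7 lists by role, of which 28 genes besides the members had a named probe. Those called lower numbered 16 on day 1, 11 on day 2, 3 on day 4, 3 on day 7 and 22 on day 14. The medians over the 5 days were -0.41, -0.89, -0.26, -0.32 and -0.77 for the members and -0.38, -0.61, -0.10, -0.23 and -0.65 for these genes. These genes too were picked by the study on these arrays, and 29 mitotic kinases and cofactors and 21 checkpoint genes were listed of which 4 and 3 had a named probe.

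Among mitotic kinases and their cofactors, TACC3, an Aurora A substrate that stabilizes spindle microtubules, was lower at day 1 (-0.48 ± 0.19) and day 14 (-0.68 ± 0.28), with limma adjusted p of 0.00621 and 0.00371. CDC25B was called lower at days 2 and 14 (-0.82 ± 0.29 and -0.55 ± 0.18, limma adjusted p = 0.00455 and 0.0184), and at day 1 it was -0.15 ± 0.14 (0.386). Of the checkpoint list, ZWINT had -0.32, -0.68, -0.11, -0.19 and -0.59 over the 5 days and was called lower on the same days as BUB1B. TPR, a nuclear pore protein that binds checkpoint proteins, ran the other way with 0.72 ± 0.30 at day 1 (limma adjusted p = 0.0589) on its brightest probe, which was called on none of the 5 days, while its other probe was called higher at day 1 (0.83 ± 0.30, limma adjusted p = 0.0343). UBE2C, the only anaphase-promoting complex gene with a named probe of 18 listed, was called lower at day 2 (-0.67) and day 14 (-0.76). At day 1 its brightest probe was not called (limma adjusted p = 0.0771). Another of its probes was (-0.29, limma adjusted p = 0.0491), and the remaining probe was not (limma adjusted p = 0.0802).

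Of 9 spindle, kinetochore and cytokinesis genes, 4 were called lower at day 1, 2 at day 2 and 6 at day 14. DLG7 had -1.03 ± 0.27 at day 2 and PRC1, which bundles the midzone microtubules, had -0.97 at day 14. The brightest PRC1 probe was not called at days 1 and 2, but its second probe was (-0.45 and -0.89, limma adjusted p = 0.029 and 0.0121). All 4 cyclins and CDK regulators were called lower at days 2 and 14 on their brightest probes: CCNA2 with -0.90 and -0.96, CDKN3 with -0.93 on the first of them, CKS2 with -0.84 and -0.95, and CDC25B. The second probe of CKS2 was called on neither day (-0.69 and -0.50, limma adjusted p = 0.205 and 0.278). That of CDKN3 was called at day 14 but not at day 2 (-0.40, limma adjusted p = 0.233). Of the 3 G2/M transcription factors all were called lower at days 2 and 14: FOXM1, an activator of G2/M genes (-0.68 and -0.60), MYBL2 (-1.16 at day 14) and MYBL1. On its brightest probe MYBL1 was called lower on all 5 days. It had -0.59 at day 4 and -0.51 at day 7 (limma adjusted p = 0.0102 and 0.0282). Its second probe was not called at day 4 (-0.33, limma adjusted p = 0.156). DNA replication and nucleotide supply genes had another course: 7 of 9 were called lower at day 1 and 7 at day 14, but 0 at day 2, where the median was -0.89 for the members and -0.38 for this list. The difference between the lists was not tested.

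**Figure D4:**
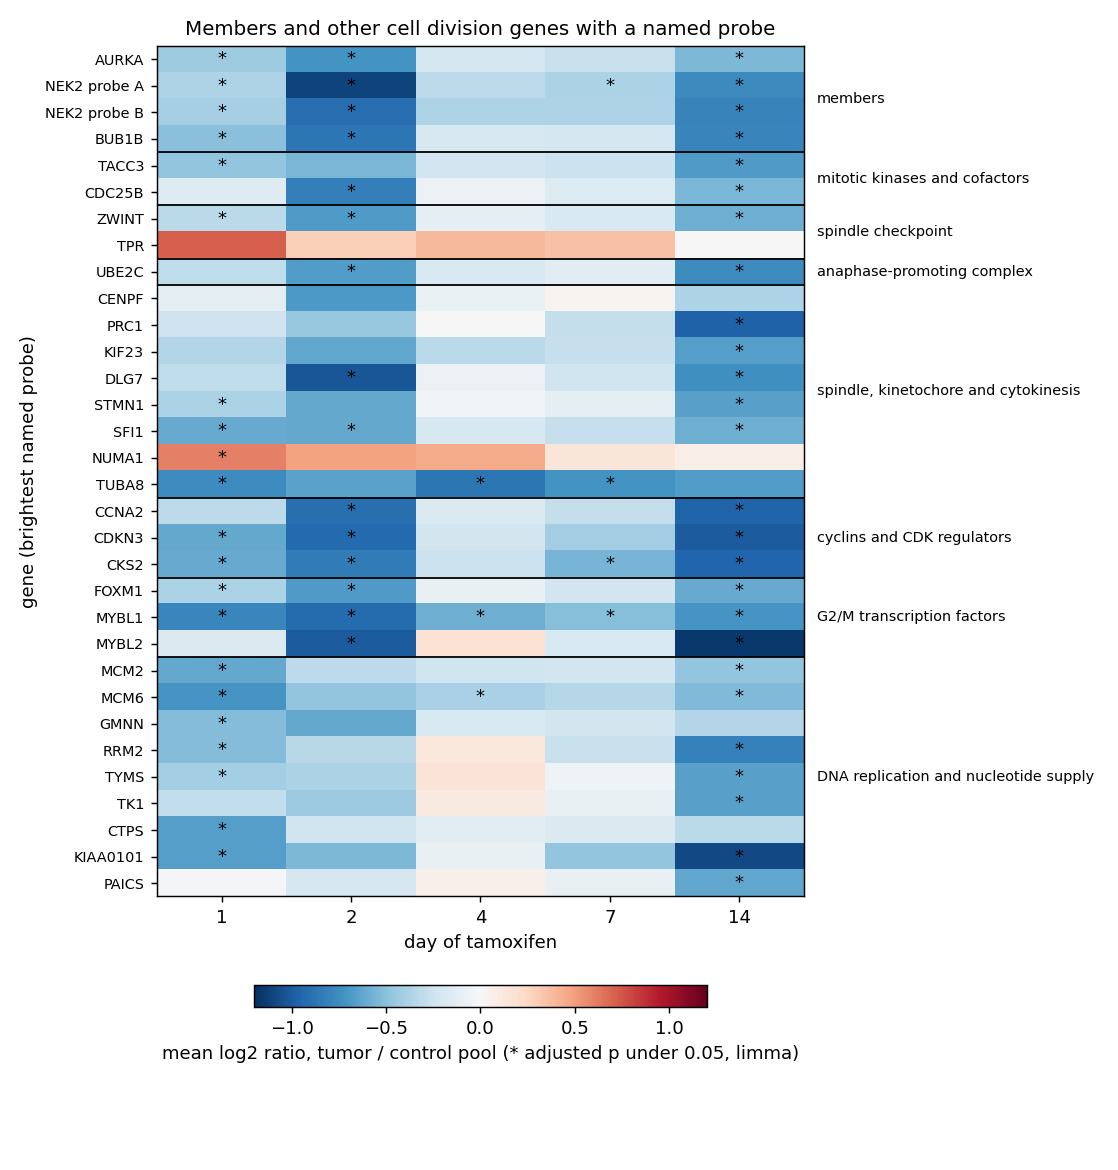
Mean log2 ratio, treated tumors over control pool, by day (columns) for the 4 member probes and 28 other genes of cell division (rows, grouped by role, brightest named probe of each); blue is lower and red higher than the pool, and stars mark an adjusted p under 0.05 in limma. The members are starred at days 1, 2 and 14, and of the 28 other genes 3 are starred at day 4 and 3 at day 7.

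Of 16 luminal markers of the line, 7 had a named probe, of which 3 were called lower and 1 higher at day 1, and 3 lower and 3 higher at day 14, with list medians of -0.06 and 0.49. TFF1 and TFF3, which estrogen induces, were lower than the pool on all 5 days (TFF1 -1.27, -1.43, -1.10, -1.12 and -2.11), days 4 and 7 included, where the members' medians were -0.26 and -0.32. CLDN4, a tight junction protein, was higher at day 1 (0.88), while CD24, MUC1 and ERBB3 were higher at day 14 (1.24, 1.02 and 0.69), MUC1 having been lower at day 1 (-0.69). Of the 4 fibroblast and matrix genes with a named probe (of 11 listed), 3 were called lower at day 14 and 0 earlier, among them MGP (-1.15) and FN1 (-0.61), and the list median at day 14 was -0.64. The second probe of FN1 had -0.67 at day 14 and was not called (limma adjusted p = 0.0581). Host cells in these tumors are mouse cells, and whether such signals come from them or from the ZR-75-1 cells was not tested. Of 2 keratinocyte genes, ITGB4 was called higher at days 4, 7 and 14 and LAMA3 lower at days 2 and 7. The erythroid HBG1 was not called on any day. Probes named jointly for HBZ, HBA1, HBA2 and HBQ1 were not counted with the erythroid list. At day 4 some of these were called lower (-1.14 and -1.16, both limma adjusted p = 0.0485) and others were not (0.0638 and 0.068). No endothelial, leukocyte or adipocyte marker listed had a named probe, and the part of other cell types in the members' day 14 values was not tested.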

How the data were processed

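RNA of 16 tamoxifen-treated ZR-75-1 xenografts was set against 1 E2-only pool on 32 two-color cDNA arrays. The intensity values are spot and local background brightness per channel, as scanned and deposited by the authors without normalization, and each spot has a mark whose meaning the files do not give. The log2 ratios of the authors' value table, made with limma (no version given) by background correction, loess and quantile normalization, were an alternative only. Names came from the study's Additional File 1.

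In R 4.3.3 (limma 3.58.1, statmod 1.5.0), mark-0 spots were dropped, normexp (offset 50) corrected the background, and loess within and quantile normalization between arrays followed. The sign of dye-swap ratios was turned before the mean per tumor was taken. lmFit used 1 mean per day and duplicateCorrelation over the mouse (0.0206), with eBayes and Benjamini-Hochberg adjustment over 9912 probes. Only the limma fit, and not the steps before it, was tested on simulated data. Those data were independent normal values per tumor, with the same shift on every day and no mouse or dye effect. The tests against the pool leave out the pool's own spread, and the number of arrays limits the precision.

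The members and lists were chosen with earlier results of these data known. Genes named are all member probes, the 5 most alike named probes of each, and up to 4 genes per list with the smallest adjusted p. A few markers and second probes are named besides. The brightest probe stands for a gene. Of 253 symbols, 251 matched RefSeq genes (GRCh38.p14). Promoters of 3 of the 4 genes matched RefSeq. Replicate numbers did not pair tumors (mean r of deviations 0.0105 over 24 pairs). Alternatives covered background, normalization, marks, dim probes, mouse block, dye term, weights, the authors' table, the left-out array and each tumor. Forward or dye-swap arrays alone were added after seeing the data.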

Additional observations from a re-analysis of the deposited data

Results flagged for a closer look

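AURKA at day 1 had 1 tumor far from the others: replicate 1 at -0.646 on the log2 scale, with the other 3 tumors between -0.38 and -0.34. The gap was 0.842 of the range. Chance alone marks about 1 in 20 such groups, and 12 groups of 4 tumors were looked at. The same tumor was also the lowest of day 1 on both NEK2 probes and on BUB1B. These probes were read on the same arrays, and the share of all probes with this tumor lowest was not counted.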

How the results depend on the processing

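Each value of a day was recomputed under 31 other settings and each difference between days under 30, and 16 of these settings leave out 1 tumor. Of 860 member values, 4 changed sign, all with dye-swap arrays alone: AURKA (0.0018), NEK2 probe B (0.00065) and BUB1B (0.155) at day 4 and BUB1B (0.054) at day 7. With those arrays the count of members called was 0 on days 1 and 7, 2 on day 2 and 2 on day 14, and with forward arrays alone it was 4 at day 4, 3 at day 7 and 1 in the F-test. With 1 mean per mouse it was 0 at days 1 and 7, and with only the tumors of the day in the fit 0 at days 2 and 7, where fewer samples give the spread. Plain background subtraction gave 2 at day 4 and 1 in the F-test, no background correction 2 at day 4, 2 at day 7 and 1 in the F-test, and loess within arrays only 1 at day 4. Single arrays with a dye term gave 1 at day 4, 2 at day 7, 3 in the F-test, 3 for day 14 over days 4 and 7 and 2 for days 4 and 7 over days 1 and 2. Array quality weights gave 3 at day 7, 1 in the F-test and 3 for day 14 over days 4 and 7. The authors' value table gave 0 at day 7 and 1 for day 14 over days 4 and 7, and the left-out dye-swap array used as labelled gave 0 at day 7. In these settings a gain in members called came with more of all probes called, and a loss with fewer, in either direction. The exception was dye-swap arrays alone on days 2, 7 and 14, where members' calls were lost while more of all probes were called. The cause was not tested. Leaving out 1 tumor gave 1 to 4 members called on day 1, 0 to 1 on day 4 and 0 to 2 on day 7. It gave 0 in the contrasts and the F-test. Where members' calls were lost on days 1 and 7, fewer of all probes were called too. Where they were gained on days 4 and 7, more were called. Without 1 of its own tumors, day 2 or day 14 rests on a lone tumor, which is assumed to vary like the rest. The calls lost there are given under each gene.

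The replicate block, with the number as a block although the numbers do not pair tumors, gave 4, 4, 0, 1 and 4 members called over the 5 days in order and 0 between days and in the F-test, and so changed no count. Signal over background was at least 2.27 for every member spot used, and all 4 member probes passed the dim-probe filter of 2 times the background.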

Other observations

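A pair of spindle genes outside the naming rule were picked after their values were seen. TUBA8, an alpha tubulin, was lower than the pool at day 1 (-0.75 ± 0.15), day 4 (-0.86 ± 0.46) and day 7 (-0.71 ± 0.35), with limma adjusted p of 0.00697, 0.00892 and 0.0332, and had -0.64 ± 0.23 at day 2 and -0.67 ± 0.21 at day 14, values of like size that were not called (limma adjusted p of 0.158 and 0.0618). NUMA1, which anchors the spindle poles, was higher at day 1 (0.60 ± 0.16, limma adjusted p = 0.0278) and had 0.48, 0.44, 0.14 and 0.08 at days 2, 4, 7 and 14, none of them called. Differences between these genes and the members were not tested.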
